A study of Mus musculus with 4 samples.

Results

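The NR4A family comprises the genes Nr4a1, Nr4a2 and Nr4a3, which encode the orphan nuclear receptors also called Nur77, Nurr1 and Nor1. The members were taken by gene symbol, which gave 3 of the 50600 gene identifiers in the count tables. They were measured by RNA sequencing in mouse T-helper 17 (Th17) cells, primary CD4 T cells of strain C57BL/6NJ differentiated in culture, in 4 libraries that form 1 group and are numbered as biological replicates 1 to 4. The labels name no treatment, no genetic change and no control group, give age as unknown and sex as not collected, and attach 1 donor identifier to all 4 biosamples. The labels do not say whether the biosamples were separate animals or cultures, so spreads and p-values refer to these libraries only. The headers also record 2 hours in the name of the counting output, without saying from which event.

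NR4A receptors bind DNA without a known hormone, and their activity in a cell follows mainly from how much of each protein is made. Their genes are immediate early genes: antigen receptor signalling, calcium and cyclic AMP switch on transcription through factors that are already present, and the mRNAs are short-lived. In T cells they are used as reporters of recent T cell receptor signalling and are known for restraining activation, for thymic selection, for regulatory T cell maintenance and for T cell exhaustion.

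Total counts were 25847970 to 40652146 fragments per library. The T cell list was present in full (8 of 8 genes at 1 TPM or more, where TPM is the level per exon length, scaled to the same total in each library), with Trac, a T cell receptor chain, at 3565 ± 251 TPM (SD, n = 4), Cd3e at 226 ± 18.8 TPM and Cd4 at 364 ± 35.1 TPM. The Th17 list stood low, with a summed level of 30.2 to 49.01 TPM per library over 8 genes, Il17f at 10.2, 7.04, 11.7 and 20.8 TPM in replicates 1 to 4, and Il17a at 5.65 ± 1.20 TPM. Summed levels were 0.392 to 1.88 TPM for 5 B cell markers (Ms4a1 with 0 counts), 0.783 to 1.48 TPM for 6 myeloid markers and 24.2 to 34.2 TPM for 5 markers of CD8 T and NK cells, of which Cd8b1 alone gave 27.0 ± 4.86 TPM while Cd8a stood at 0.216 ± 0.184 TPM and Ncr1 and Klrb1c had 0 counts. Replicates 1 and 2 carried the Y-linked Ddx3y at 305 and 213 TPM, against 0.914 and 1.39 TPM in replicates 3 and 4, where Xist stood at 142 and 76.5 TPM. Xist stood at 0.791 and 0.602 TPM in replicates 1 and 2. This is the pattern of male cells in replicates 1 and 2 and of female cells in replicates 3 and 4. The libraries thus did not all come from 1 animal, although 1 donor identifier covers them. The part of this difference in the member values was not tested. In such bulk samples more cells expressing a gene and more RNA per cell cannot be told apart.

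The stretches of DNA before the 3 transcription starts are shown first, because cyclic AMP response elements (CREs), which bind the CREB and ATF factors, are a textbook route to NR4A transcription and the letters of their half-site recur in all 3. The sequences are from RefSeq (GRCm38.p6, the build of mm10). Each begins 250 bases before the RefSeq start of the transcript and stops before the first base of the gene in either RefSeq or the deposited tables, which leaves 250 bases for Nr4a1 (chr15:101266596-101266845, plus strand), 250 for Nr4a2 (chr2:57124004-57124253, minus strand) and 98 for Nr4a3 (chr4:48045055-48045152, plus strand), whose deposited gene starts at 48045153 and whose RefSeq transcript starts at 48045305. They read 5′ to 3′ on the strand of the gene, and capitals mark the CRE half-site TGACG or its reverse complement CGTCA.
Nr4a1: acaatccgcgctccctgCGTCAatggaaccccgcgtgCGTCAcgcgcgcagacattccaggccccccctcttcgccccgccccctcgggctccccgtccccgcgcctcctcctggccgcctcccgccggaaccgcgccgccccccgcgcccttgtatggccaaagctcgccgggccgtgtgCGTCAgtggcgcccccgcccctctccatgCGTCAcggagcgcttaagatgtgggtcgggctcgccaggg
Nr4a2: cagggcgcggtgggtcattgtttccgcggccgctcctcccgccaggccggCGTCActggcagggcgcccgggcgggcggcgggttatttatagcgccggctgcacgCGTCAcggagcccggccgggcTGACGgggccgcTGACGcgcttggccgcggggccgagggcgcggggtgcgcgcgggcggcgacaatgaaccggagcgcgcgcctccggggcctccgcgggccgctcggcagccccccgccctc
Nr4a3: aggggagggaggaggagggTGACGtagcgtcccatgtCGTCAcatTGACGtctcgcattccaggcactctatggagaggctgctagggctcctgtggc

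Each member had 4 half-sites in its RefSeq promoter window of 300 bases, which runs from 250 bases before to 50 after the start. The 4th half-site of Nr4a3, at -147 from the RefSeq start, lies past the stretch printed above. Across all 32851 RefSeq windows of that length, 20.8% held at least 1 half-site on either strand and 0.231% held 4 or more. The motif contains a CG pair, and the 3 windows were rich in G and C (72.3%, 81.7% and 64.7% for Nr4a1, Nr4a2 and Nr4a3, against a median of 52.7%). Among the 6218 windows with at least the G and C share of Nr4a3, the least GC-rich member, 0.563% held 4 or more. That bound does not match the higher shares of Nr4a1 and Nr4a2 or the number of CG pairs. The motif was chosen after the sequences were read, so these shares describe the windows and test nothing. The arrangement differed between the members: the Nr4a1 half-sites lay at -233, -213, -69 and -40, all on the strand opposite to the gene, whereas those of Nr4a2 (-200 to -111) and of Nr4a3 (-231 to -147) lay closer together and on both strands. Half-sites occurred in the windows of 13 of 29 early genes of T cell receptor signalling that had a window, among them Fos, Junb and Btg2, and in 23.0% of all 27025 genes with a window. None of the 3 windows held the full palindromic element TGACGTCA, found in 1.79% of all windows and containing the half-site on both strands. The monomer site of the NR4A proteins themselves, AAAGGTCA, was also in none of the 3 and in 1.51% of all windows. The NFAT core GGAAA occurred 1 time in the Nr4a2 window only, against 61.3% of all windows with at least 1. The serum response factor site (CArG box) was in none of the 3 (1.63% of all windows), and the MEF2 site was in Nr4a2 only (3.19% of all windows). For motifs other than the half-site, the shares were not restricted to windows rich in G and C. They therefore do not show that the 3 GC-rich windows lack such sites. Both strands were searched for each motif, a match is a match of letters and no more, and elements outside these windows were not searched.

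**Figure D1:**
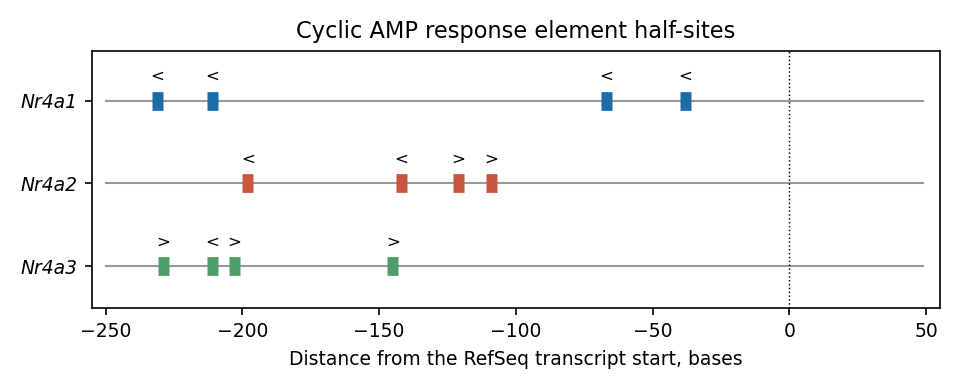
Positions of CRE half-sites in the 300-base RefSeq promoter windows of the 3 NR4A genes, with the distance from the RefSeq transcript start in bases on the horizontal axis (the dotted line is the start). Each gene has 4 half-sites (blocks), with the strand of TGACG marked by an arrowhead, and those of Nr4a1 reach from -233 to -40.

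Nr4a1 encodes Nur77, the basis of the Nur77 reporter mice of T cell receptor signalling. It lies on chromosome 15 from 101266846 to 101274792 on the plus strand (mm10), and its counts cover 7 exon intervals with a joint length of 2474 bases. It stood at 14894, 14132, 14883 and 13922 TPM in replicates 1, 2, 3 and 4, a mean of 14458 ± 505 TPM (SD, n = 4). The 4 libraries lay close together, with a coefficient of variation of 3.49%. The fragments behind these levels numbered 387373, 427599, 278900 and 266171, which is 1.07, 1.05, 1.03 and 1.03% of all fragments assigned to genes. By fragment number it was the most abundant of all genes in replicates 1 and 3 and 2nd in replicates 2 and 4. None of its distinct 31-mers occurs in a transcript of another gene, so no near-identical copy was found that could share its fragments.

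Nr4a3 encodes Nor1, a member that overlaps in function with Nur77 in T cell selection and tolerance. It lies on chromosome 4 from 48045153 to 48086447 on the plus strand, with 9 exon intervals and 5987 bases of exon, the longest of the 3 transcripts. It stood at 4378, 3532, 3335 and 4102 TPM in replicates 1 to 4, on 275545, 258613, 151215 and 189767 fragments. The mean was 3836.5 ± 486 TPM (SD, n = 4), with replicates 1 and 4 high and replicates 2 and 3 low. It took 0.673 ± 0.0914% of all fragments (SD, n = 4) and was the 4th most abundant gene by fragment number in each of the 4 libraries. Per length it ranked lower, 25th by mean TPM, since its long exons collect more fragments per transcript.

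Nr4a2 encodes Nurr1, best known for the development of dopamine neurons and studied in T cells as a factor of interleukin 17 and interleukin 21 production. It lies on chromosome 2 from 57106830 to 57124003 on the minus strand, with 10 exon intervals and 4059 bases of exon. It stood at 1739, 1245, 1573 and 1492 TPM in replicates 1 to 4, on 74221, 61805, 48357 and 46789 fragments. The mean was 1512 ± 206 TPM (SD, n = 4), with replicate 2 lowest and replicate 1 highest. Counting error is small beside these differences: the share of fragments was 0.152% in replicate 2 (95% Wilson interval 0.151% to 0.153%) and 0.204% in replicate 1 (0.203% to 0.206%), intervals that cover counting error only. Nr4a2 and Nr4a3 share 0.268% and 0.401% of their distinct 31-mers with other genes.

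**Figure D2:**
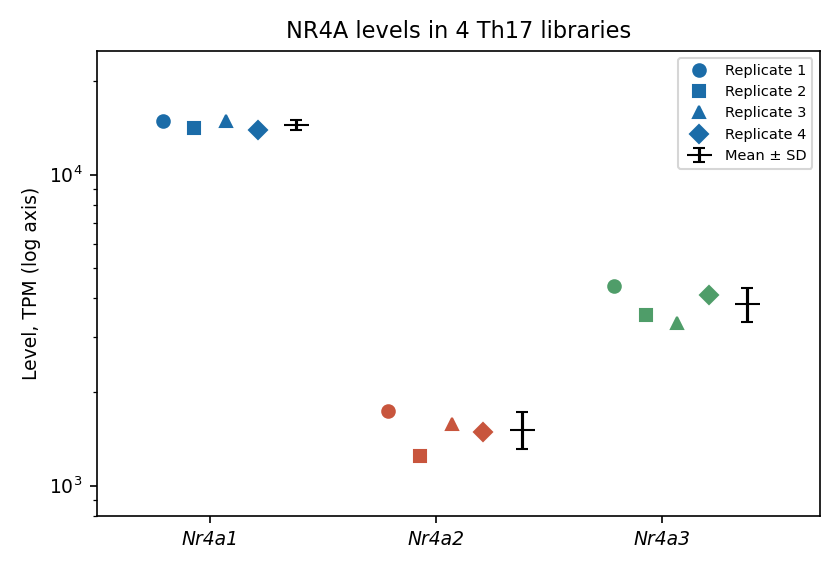
Levels of Nr4a1, Nr4a2 and Nr4a3 in TPM on a log axis, with 1 symbol per library and the mean ± SD (n = 4) beside them in black. The 3 genes occupy separate ranges, from 1245 to 1739 TPM for Nr4a2, 3335 to 4378 TPM for Nr4a3 and 13922 to 14894 TPM for Nr4a1.

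The order Nr4a1, Nr4a3, Nr4a2 held in 4 of 4 libraries, and the ranges of the 3 genes did not overlap. Nr4a1 exceeded Nr4a3 by a mean difference of 1.92 ± 0.19 on the log2(TPM + 1) scale (SD, n = 4), which corresponds to TPM ratios of 3.40, 4.00, 4.46 and 3.39 in replicates 1 to 4. It exceeded Nr4a2 by 3.27 ± 0.17 (ratios of 8.56, 11.4, 9.46 and 9.33). Nr4a3 exceeded Nr4a2 by 1.34 ± 0.19 (ratios of 2.52, 2.84, 2.12 and 2.75). Each of these 3 differences was larger than its spread between libraries and had p = 0.125 in the exact two-sided sign-flip permutation test, which is the smallest value 4 libraries allow and stays 0.125 after Benjamini-Hochberg adjustment over the 3 pairs. The division by length matters most for the first pair: in fragments alone, Nr4a1 exceeded Nr4a3 by 0.65 ± 0.19 on the log2(CPM + 1) scale, where CPM is the fragment number scaled to the library total.

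Within the family, Nr4a1 supplied 70.9, 74.7, 75.2 and 71.3% of the summed NR4A TPM in replicates 1 to 4. Nr4a3 supplied 20.8, 18.7, 16.8 and 21.02%, and Nr4a2 the remaining 8.28, 6.58, 7.95 and 7.64%. The libraries with the smaller Nr4a1 share, replicates 1 and 4, were those with the larger Nr4a3 share. Shares of a fixed total are tied to each other, so this is 1 observation and not 2. Together the 3 genes took 2.03, 1.84, 1.78 and 1.94% of all fragments.

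**Figure D3:**
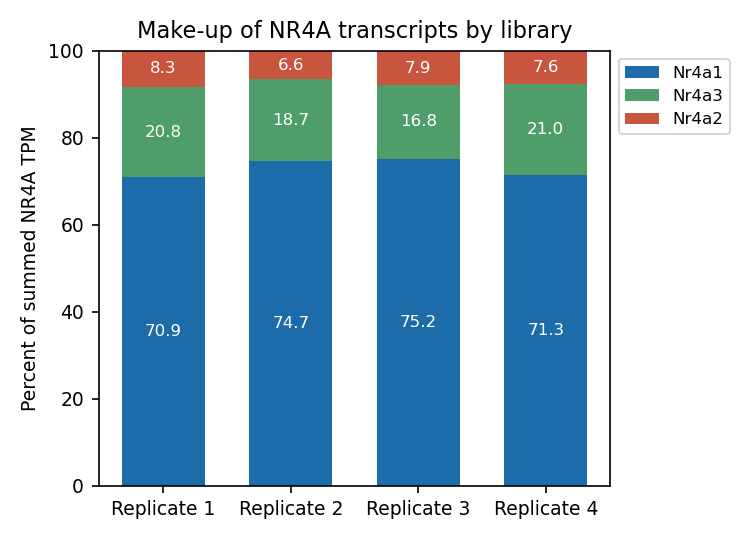
Percent of the summed NR4A TPM from each member, by library (stacked bars from 0 to 100%). Nr4a1 makes up 70.9 to 75.2% in each library, Nr4a3 16.8 to 21.02% and Nr4a2 6.58 to 8.28%.

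The members were set against the other nuclear receptor genes, the superfamily of ligand-regulated and orphan receptors to which they belong. They were the 3 highest of 49 nuclear receptor genes in 4 of 4 libraries and held 95.8 to 96.3% of the summed nuclear receptor TPM. Of the 46 others, 19 had a mean of 1 TPM or more, 18 had 0 counts throughout (a count of 0 still allows 0.116 CPM in the shallowest library) and the median stood at 0.0900 TPM. The 4th gene in each library was Nr1h2, which encodes the oxysterol receptor LXR-beta, at 217, 184, 248 and 195 TPM in replicates 1 to 4. Nr4a2, the lowest member, exceeded it 8.03-, 6.78-, 6.33- and 7.64-fold. Rara, a retinoic acid receptor, followed at 150.04 ± 21.2 TPM and Ppard, a fatty acid receptor, at 126 ± 11.8 TPM. Nr3c1, the glucocorticoid receptor, stood at 72.4 ± 5.21 TPM, and the Th17-associated receptor gene Rora at 9.82 ± 2.49 TPM.

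**Figure D4:**
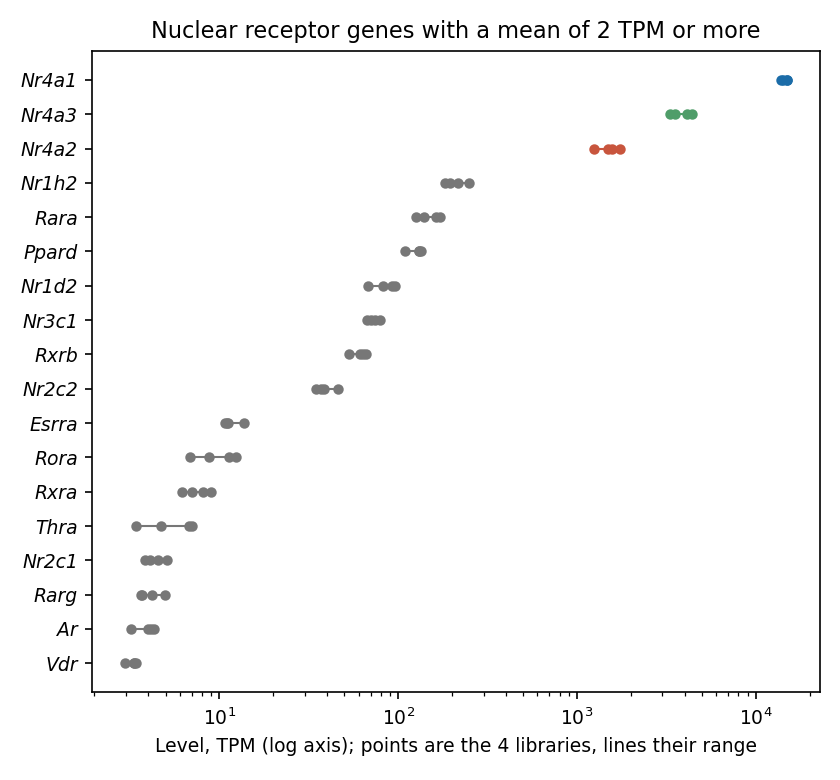
Levels of the 18 nuclear receptor genes with a mean of 2 TPM or more, in TPM on a log axis, with a point for each of the 4 libraries and a line over their range. The 3 NR4A genes (coloured) lie apart from the rest, whose highest value is 248 TPM for Nr1h2.

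Retinoid X receptors are the heterodimer partners described for Nur77 and Nurr1. Rxrb stood at 60.8, 63.3, 65.8 and 52.9 TPM in replicates 1 to 4, Rxra at 7.57 ± 1.20 TPM, and Rxrg had 1 count in all. All 4 values of Rxrb lay below the lowest value of each NR4A gene. Of the 15 partners and coregulators 14 had a mean of 1 TPM or more, with a median of 60.7 TPM, against 19.8 TPM over all 11567 genes that passed the expression filter. They were led by the coactivator gene Ncoa3 (217 ± 21.5 TPM), the corepressor gene Ncor1 (127 ± 6.398 TPM) and Stk11, which encodes the kinase LKB1 that Nur77 can bind (116 ± 12.9 TPM). Rcor1 and Kdm1a, subunits of the CoREST repressor complex that Nurr1 can recruit, stood at 61.1 ± 4.77 and 60.5 ± 6.91 TPM. The lowest after the retinoid X receptor genes was the coactivator gene Ncoa1, at 27.0 ± 1.80 TPM. Bcl2, whose protein Nur77 can bind at mitochondria, stood at 53.0 ± 3.12 TPM.

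The factors known to act on NR4A promoters were present at lower levels than their targets. Of 21 such genes 19 reached 1 TPM, with a median of 37.1 TPM. Crem, a cyclic AMP response factor, led at 303, 301, 251 and 312 TPM in replicates 1 to 4, followed by Elk4, an ERK-responsive partner of serum response factor, at 216 ± 26.9 TPM, and Nfatc1, a calcineurin-dependent factor, at 176, 128, 133 and 203 TPM. Mef2d, the MEF2 factor linked to Nur77 induction in thymocytes, stood at 151 ± 16.5 TPM and Mef2a at 22.1 ± 0.831 TPM, while Mef2c stood at 0.0312 ± 0.0258 TPM on 18 counts. Creb1 and Atf1, whose proteins bind CREs, stood at 34.8 ± 6.26 and 149 ± 4.03 TPM. Hdac7, a class IIa deacetylase that represses Nr4a1 with MEF2D in thymocytes, stood at 70.9 ± 13.7 TPM, and its relative Hdac9 at 0.158 ± 0.0578 TPM. The 3 lowest of the list were Mef2c, Hdac9 and the ERK1 gene Mapk3 (17.9 ± 3.50 TPM).

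Other early genes of T cell receptor signalling gave a scale for the members. Of 43 such genes 42 reached 1 TPM, and the list median was 542 TPM. Nr4a1 stood above all 43 in 4 of 4 libraries. Nr4a3 stood above 39 of them in 4 of 4 libraries, and the 2 with a higher mean, Junb (4039 ± 369 TPM) and Egr1 (3965 ± 359 TPM), overlapped it: Egr1 stood at 3808, 4419, 4053 and 3581 TPM in replicates 1 to 4, above Nr4a3 in replicates 2 and 3 and below it in replicates 1 and 4. The next early gene, Btg2, stood at 3403 ± 295 TPM. Nr4a2 stood above 30 of the 43 in 4 of 4 libraries and below 6. The lowest early genes were Fosl1 (6.95 ± 0.686 TPM), Egr4 (3.36 ± 0.833 TPM) and Spry2 (0.50 ± 0.314 TPM).

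Genes that earlier work ties to NR4A action in T cells were spread over the whole range. Of 24 such genes 19 reached 1 TPM, with a median of 16.5 TPM. Irf4, which Nur77 restrains in CD8 T cells, stood at 1703, 1972, 2205 and 1544 TPM in replicates 1 to 4, and the AP-1 factor gene Batf at 684 ± 55.8 TPM. Among genes of exhausted T cells, Pdcd1 stood at 164, 123, 127 and 198 TPM and Tox at 26.8 ± 1.64 TPM, while Havcr2 had 5 counts in all and the cytokine gene Il4 had 4. Runx3, which Nur77 is known to restrain in CD8 T cells, stood at 59.7 ± 6.71 TPM and Runx1 at 34.0 ± 1.75 TPM. Foxp3, the regulatory T cell gene that NR4A proteins activate, stood at 1.77 ± 0.290 TPM and Ikzf2 at 0.983 ± 0.182 TPM. The interleukin 21 gene Il21 and the interleukin 17 gene Il17a, both linked to Nurr1, stood at 7.79 ± 1.73 and 5.65 ± 1.20 TPM, below the list median. The interleukin 23 receptor gene Il23r stood at 0.132 ± 0.124 TPM on 11 counts. Promoter windows were found for 21 of the 24 genes, and none held AAAGGTCA, against 1.70% of all 27025 genes with a window. At so low a share, 0 of 21 genes shows nothing about this list.

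The genomic neighbourhood did not share the high levels. Within 50 kb of the 3 members the deposited tables hold 8 other genes, none of which overlaps a member. Beside Nr4a1, Atg101, an autophagy gene 9509 bases downstream on the same strand, stood at 128 ± 10.8 TPM, and Grasp, a scaffold gene, at 33.7 ± 8.36 TPM. Nr4a1 exceeded them 113- and 429-fold in mean TPM. The noncoding 6030408B16Rik and A330009N23Rik stood at 0.437 ± 0.431 and 0.704 ± 0.196 TPM. Beside Nr4a2, BB557941, 3476 bases upstream on the same strand, had 2 counts in all and Gm13527 had 0. Beside Nr4a3, Stx17, a syntaxin gene, stood at 8.15 ± 2.17 TPM and Gm12434 had 0 counts.

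Differences between libraries were modelled for all genes at once with edgeR, where a gene was called when it varied more than genes of like abundance. Of 11567 genes tested, 94 were called (0.813%), and of the 3 members none was: the unadjusted p was 0.97 for Nr4a1, 0.46 for Nr4a2 and 0.22 for Nr4a3 (edgeR, Benjamini-Hochberg adjusted p = 1.00 for each). With the dispersion trend of DESeq2 put into the same edgeR fit, the unadjusted p was 0.96 for Nr4a1, 0.28 for Nr4a2 and 0.0996 for Nr4a3. A failure to pass does not show that the levels were equal, and 3 genes cannot be read against a background of 0.813%. Without replicate 1, 2, 3 or 4 the total was 60, 39, 59 or 35 genes, with 0 members called each time. Counts were also simulated for these 11567 genes, each varying just as the trend for its abundance assumes. There the step called 98% of genes raised 4-fold in 1 library and 42% of those raised 2-fold, which genes off the trend need not follow. The highest library exceeded the lowest 1.07-fold for Nr4a1, 1.397-fold for Nr4a2 and 1.31-fold for Nr4a3, against a median of 1.35-fold over all genes tested. Among 8745 genes with at least 100 counts in every library, 5.16% had a smaller spread than Nr4a1, 64.9% a smaller one than Nr4a2 and 83.1% a smaller one than Nr4a3, all on the scale of normalised log2 counts.

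The 3 members were not all lowest in the same library. On the log2 scale of library-normalised CPM, Nr4a3 deviated from its own mean by 0.20, -0.06, -0.31 and 0.17 in replicates 1 to 4, Nr4a2 by 0.22, -0.22, -0.05 and 0.06, and Nr4a1 by 0.05, 0.01, -0.08 and 0.02. Replicate 1 was thus highest for each member, while the lowest library was replicate 2 for Nr4a2 and replicate 3 for the other two. In TPM, replicate 3 was not lowest for Nr4a1 but 2nd highest, so the order of its libraries depends on the scaling. For Nr4a3, replicates 1 and 4 were the 2 highest on both scales. Of the libraries high in Nr4a3, 1 was a deep library with high Ddx3y (replicate 1, 36298276 fragments) and 1 the shallowest library with high Xist (replicate 4, 25847970 fragments). Any part of depth or of the sex-linked difference in the Nr4a3 levels was not tested.

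Likeness to a member was measured over the 4 libraries as the root mean square difference of these deviations, among 8744 other genes. With 4 libraries and so many genes, close matches are common, and the names are a description with no test. Nearest to Nr4a3 were Shoc2, a scaffold of RAS to ERK signalling (0.0121), Psma5, a proteasome subunit (0.0134), Nab1, a corepressor of EGR factors (0.0141), Phlda1 (0.0170) and the lactate transporter Slc16a1 (0.0171). Nab1 stood at 492, 402, 383 and 472 TPM in replicates 1 to 4, high and low in the same libraries as Nr4a3, which its choice by likeness ensures. Nearest to Nr4a2 were Heatr1, a ribosome biogenesis factor (0.00877), Dclre1b (0.0142), Map3k7, which encodes the kinase TAK1 (0.0157), Fam129a (0.0167) and Plcxd2 (0.0208). Nearest to Nr4a1, whose profile is nearly flat, were Prkce, a protein kinase C gene (0.00414), Rbm27 (0.00454), Minos1 (0.00676), Enc1 (0.00703) and Ifrd1 (0.00769). The members stood at 0.148 between Nr4a1 and Nr4a2, 0.167 between Nr4a1 and Nr4a3 and 0.163 between Nr4a2 and Nr4a3. The median distance to all other genes was 0.134 from Nr4a1, 0.208 from Nr4a2 and 0.231 from Nr4a3. Seen from Nr4a2 and from Nr4a3, the other members were thus nearer than the median gene but not among the nearest: Nr4a3 ranked 2482nd from Nr4a2, and Nr4a2 ranked 2103rd from Nr4a3. Seen from Nr4a1, both other members were farther than the median gene, with Nr4a2 at rank 5017 and Nr4a3 at rank 5732.

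**Figure D5:**
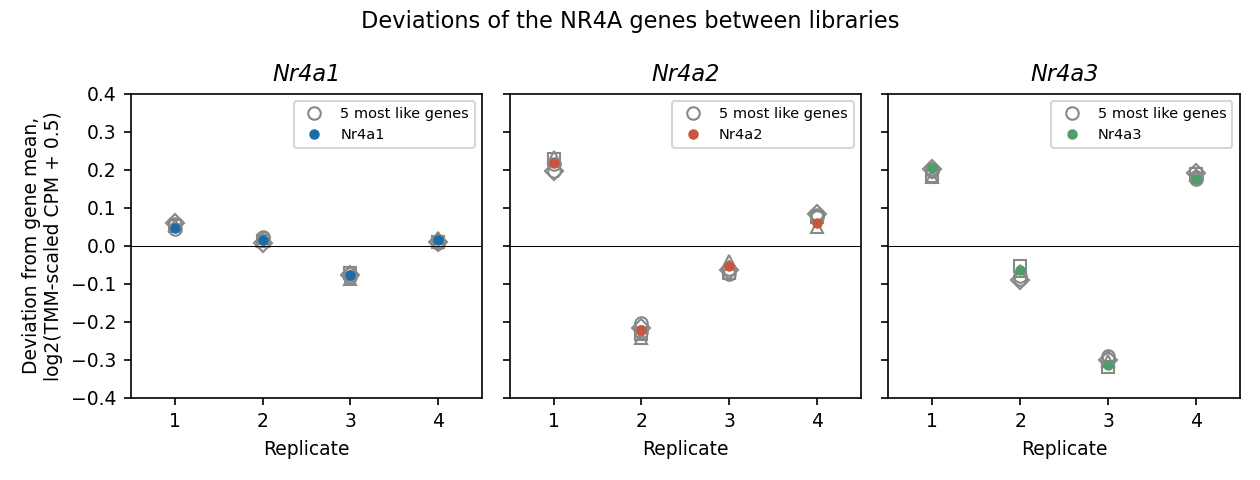
Deviation of each member from its own mean by replicate, in log2(TMM-scaled CPM + 0.5), as filled points, with the 5 most like genes as open symbols. Nr4a1 stays within 0.08 of its mean, and Nr4a3 is high in replicates 1 and 4 and lowest in replicate 3.

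Genes highest in replicates 1 and 4, as Nr4a3 was, on both scales made up 13.1% of all genes tested. Among the tested genes tied to NR4A action they were 8 of 20, namely Tox2, Pdcd1, Lag3, Bcl2l11, Il2, Il17a, Il21 and Bcl6. Among the early genes they were 10 of 42, namely Dusp2, Dusp5, Dusp6, Phlda1, Gadd45b, Siah2, Klf10, Bhlhe40, Atf3 and Spry1. The most abundant early genes, Junb, Egr1 and Btg2, were not among these and were highest in replicate 2 in TPM. The list of NR4A-tied genes held 2 genes called as varying, the cytokine gene Il2 (21.9, 12.9, 14.2 and 43.5 TPM in replicates 1 to 4, edgeR adjusted p = 7.3e-05) and the repressor gene Bcl6 (31.7, 15.3, 18.9 and 36.4 TPM, edgeR adjusted p = 9.7e-05), which is 2 of 20 tested against 0.813% of all genes. No gene was called in the nuclear receptor, upstream, partner or early gene lists (0 of 24, 0 of 20, 0 of 14 and 0 of 42 tested, members included in the first). The Th17 list held 1 called gene of 5 tested, Il17f (edgeR adjusted p = 0.017), and the sex-linked list 4 of 4, against the same 0.813%. Since lists and members were chosen with these data known, the counts describe the lists and support nothing further.

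Rapid decay is a known property of NR4A mRNAs, and the AUUUA pentamer (ATTTA in the DNA letters used here) is the core of the AU-rich elements that speed it. In the 3′ untranslated region of the longest complete coding transcript (GENCODE M21), the pentamer occurred 3 times in 543 bases of Nr4a1, 3 times in 1326 bases of Nr4a2 and 5 times in 3093 bases of Nr4a3. Per kilobase that is 5.52, 2.26 and 1.62, against a median of 1.30 over 9776 genes of at least 1 mean TPM and 2.27 over the 43 early genes. By number, the median over those genes was 2. As many pentamers or more were found in 37.8% of them for Nr4a1 and for Nr4a2, and in 22.3% for Nr4a3. As many per kilobase or more were found in 4.74% of those genes for Nr4a1, 30.3% for Nr4a2 and 42.9% for Nr4a3. The most abundant member thus had the shortest and most pentamer-dense of the 3 regions, and mRNA decay itself was not measured.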

How the data were processed

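RNA was sequenced from 4 Th17 libraries; the labels call the assay total RNA-seq, while the linked library protocol is named for poly(A)+ RNA. Per the file headers, the authors ran featureCounts 1.4.6-p4 on GENCODE M13 exons, paired and reverse-stranded, and deposited unnormalised gene counts of fragments with the exon length of each gene. The recorded command requires both ends mapped and sets no option to count fragments with several alignments or genes. The assembly is mm10 per the labels, and the counted alignments are tagged star2 in the headers, with no aligner version. From the counts and the deposited union exon lengths, TPM and CPM were computed. Symbols came from GENCODE M21 by identifier without version (50376 of 50600 matched, 224 not).

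Variation between libraries was tested with edgeR 4.0.16 in R 4.3.3: intercept only, its expression filter, TMM normalisation, with each gene's deviance, computed at the trended dispersion, referred to chi-square on 3 degrees of freedom, and Benjamini-Hochberg adjusted p under 0.05. With 1 group no coefficient could be tested. The step was tested on data simulated at the trended dispersion, which the step itself assumes, and called 5 of 11367 unchanged genes. Genes whose own dispersion departs from the trend were not simulated, so its error rate for such genes is not known. DESeq2 1.42.0 gave only alternative size factors and an alternative dispersion trend, with the fit and the deviance still from edgeR. Pairs of members were compared within libraries by an exact sign-flip permutation test. A count of 0 allows 3 counts, 0.0738 to 0.116 CPM. Other steps used scipy 1.17.1, pandas 2.3.3 and numpy 2.4.6 under Python 3.11.15, with figures from matplotlib 3.10.9.

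The rule for named genes took the members, the 3 highest and 3 lowest of each list with any defining marker or called gene, genes within 50 kb of a member, and the 5 most like profiles. Of the cell type marker and sex-linked lists only some of these are named, and nuclear receptor genes with 0 counts are given as a count. Others (Nr3c1, Rora, Fos, Mef2d, Creb1, Atf1, Hdac7, Mef2a, Rcor1, Kdm1a, Bcl2, Tox, Runx1, Runx3, Foxp3, Ikzf2, Il21 and the genes named for their libraries) were named for their role after their values were seen. Members and lists were chosen with earlier results of these data known, and the promoter motifs after the sequences were read. A gene of the lists is not reported here by name.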

Additional observations from a re-analysis of the deposited data

Results flagged for a closer look

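Among 49 values with 4 libraries each, 2 had 1 library far from the other 3 (a gap to the nearest library beyond Dixon's 95% limit), and chance alone flags about 1 in 20 such groups. The NR4A share of the summed nuclear receptor TPM was 95.8% in replicate 3, against 96.2 to 96.3% in the other libraries. The other nuclear receptors summed to 874 TPM in that library, the highest of the 4. Cd3e, a T cell receptor subunit gene, stood at 254 TPM in replicate 3, against 214 to 219 TPM in the others.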

How the results depend on the processing

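The 3 differences between members kept their direction under the pseudocount, length, scaling and filter alternatives and without each replicate; leave-one-out means ran from 3.19 to 3.32 for Nr4a1 minus Nr4a2, 1.84 to 1.97 for Nr4a1 minus Nr4a3 and 1.29 to 1.43 for Nr4a3 minus Nr4a2, where 3 libraries allow no p below 0.25. With no division by length they were 2.55, 0.65 and 1.90 on the log2(CPM + 1) scale. With the longest annotated transcript as the length of each gene, Nr4a1 stood at 11360 TPM and Nr4a3 at 3256 TPM, and the order of the members was the same. The count of genes varying beyond the trend was 94, with 256 at the common dispersion and 35 to 60 without 1 replicate (fewer samples). It was 92 with size factors of the DESeq2 kind (RLE) computed in edgeR, and 85 with no expression filter. At the dispersion trend of DESeq2, fitted and tested in edgeR, the count was 94. The members were called in none of these 9 fits, with unadjusted p from 0.0996 to 0.986. Libraries could not be paired across groups because there is 1 group, so the only pairing was of members within each library. Depth does not limit the members, with 46789 or more fragments each, but does limit genes of a few counts.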
